A study of Mus musculus with 24 samples.

Results

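The 7 suppressors of cytokine signalling followed here were the genes Cish, Socs1, Socs2, Socs3, Socs5, Socs6 and Usp18. They were taken by name from the gene column of the expression matrix, where each matched 1 row, so they are 7 of 43629 gene identifiers. All 7 reached a value of 1 in 3 or more libraries, the condition for testing, and were among the 18637 genes tested. The cells were bone marrow-derived macrophages (BMDMs) of C57BL/6 mice at postnatal week 10, that is, primary macrophages differentiated in vitro. Cells of the Wild Type genotype (WT) were compared with CITED2-KO cells (KO), which lack CITED2, a protein that modulates transcription through the acetyltransferases CBP and p300. Cells of each genotype were left untreated (control) or given lipopolysaccharide (LPS, an outer membrane component of bacteria that activates TLR4), interferon gamma (IFNg) or interleukin 4 (IL4), with 3 libraries in each of the 8 groups. The labels used here give neither dose, time of treatment nor the way Cited2 was deleted. They also do not say whether libraries of a group came from separate animals, so the spread among them may be technical. Unless stated otherwise, p-values reflect this spread pooled for each gene over all 8 groups, not only over the groups compared.

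Cytokine receptors signal through Janus kinases (JAKs), which phosphorylate STAT transcription factors, and STATs in turn induce inhibitors that damp the same receptor. The SOCS family and CISH do this through an SH2 domain that binds phosphorylated receptors or kinases and a SOCS box that recruits a ubiquitin ligase. USP18 removes the ubiquitin-like protein ISG15 from its targets and, separately, blocks the type I interferon receptor at its IFNAR2 chain. In macrophages SOCS1 is best known as the brake on interferon gamma signalling and SOCS3 as the brake on signalling through gp130, the shared chain of the IL-6 receptor family.

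STAT dimers bind palindromes of the form TTCNNNGAA (the GAS element), and repeats of the form GAAANNGAAA (the ISRE) are bound by interferon-activated complexes that contain IRF9. RefSeq promoter windows of 300 bases around the annotated start (GRCm38.p6) covered 3 of the 7 members, and a match on either strand was found in each. The stretches are shown because these 3 genes had both a window and a match. Capitals mark the matches, and all 3 stretches are written 5′ to 3′ on the strand of the gene.
Cish, chr9:107296654-107296683, plus strand: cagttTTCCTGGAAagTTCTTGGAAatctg
Socs3, chr11:117969452-117969580, minus strand: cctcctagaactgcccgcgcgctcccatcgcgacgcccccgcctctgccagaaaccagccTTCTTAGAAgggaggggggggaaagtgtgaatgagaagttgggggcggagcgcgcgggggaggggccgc
Socs1, chr16:10785544-10785679, minus strand: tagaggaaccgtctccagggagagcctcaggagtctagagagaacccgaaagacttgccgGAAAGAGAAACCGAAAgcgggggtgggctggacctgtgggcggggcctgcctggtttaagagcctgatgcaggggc
Cish held 2 GAS matches, at positions 1 to 9 and 12 to 20 from the start, within an annotated exon. Socs3 held 1 GAS match at positions -154 to -146, and Socs1 held 2 ISRE matches that overlap, at -83 to -74 and -77 to -68, both outside annotated exons. Among all 32851 windows of that length, 8.3% held the GAS form and 3.44% the ISRE form. A match is a run of letters and was not tested for binding.

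Values are the authors' normalised read counts. Library depth ran from 1478507 reads (KO LPS replicate 1) to 73409343, with a median of 29551522. For the shallowest library, 1 read stands for a value of 23.6. Cited2 in KO libraries stood at 0.558% to 1.35% of the WT level in the 4 treatments. All 8 macrophage markers were detected, with a summed level of 133404 to 218522, against 269 to 2575 for 8 neutrophil, 47.8 to 1303 for 8 T and NK cell, 0 to 845 for 6 dendritic cell, 233 to 507 for 6 fibroblast and stroma, and 65.6 to 374 for 6 mast cell and basophil markers. The sum of 6 B cell markers was 9.52 to 37.6 and that of 5 erythroid markers 0 to 3.43. Of the defining markers, 2 erythroid and 1 mast cell and basophil gene were at 0 in every library. Cultures were measured in bulk, so a change in the level per cell and a change in the share of cells that express a gene cannot be told apart.

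In WT cells the mean of Socs3 rose 875-fold with LPS and 276-fold with IFNg, that of Socs1 113-fold and 312-fold, and that of Usp18 117-fold and 10.7-fold, while Socs6 fell to 24.4% and 22.3% of control. In WT cells all 7 members changed with LPS, 5 upwards and 2 downwards, where 25.5% of all genes tested were called higher and 27.8% lower at an adjusted p below 0.05. With IFNg 4 rose and 2 fell, against 22.5% and 22.6% of all genes, and with IL4 5 rose and 1 fell, against 10.6% and 9.56%. In KO cells 5 rose and 2 fell with LPS (24.5% and 32.5% of all genes), 5 rose and 2 fell with IFNg (22.3% and 23.7%), and 5 rose and 1 fell with IL4 (12.6% and 10.5%). The 3 treatments of a genotype share its 3 control libraries. In WT the members had a median log2 difference of 6.62 (LPS), 3.42 (IFNg) and 1.68 (IL4), beside -0.06, 0 and 0 over all genes tested. In KO cells the median over all genes with LPS lay at -0.21.

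**Figure D1:**
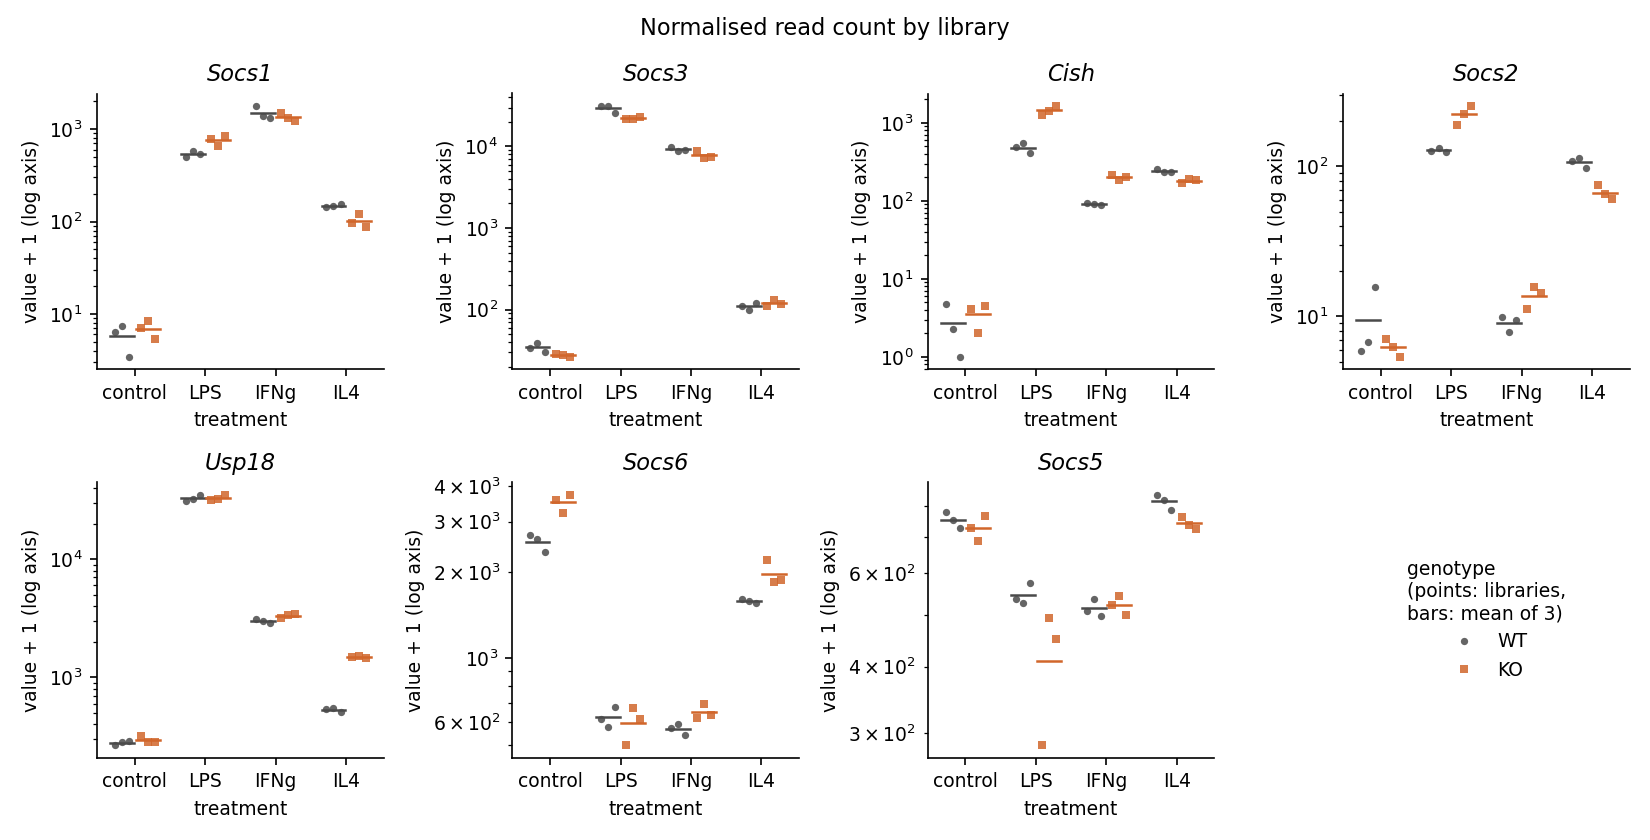
Normalised read count plus 1 (log axis) of each member in the 24 libraries, by treatment, with WT as circles, KO as squares and bars at the mean of 3. Socs1, Socs3, Cish and Usp18 lie far above control with LPS and IFNg, and the KO squares stand apart from the WT circles for Cish with LPS and for Usp18 with IL4.

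Socs1 (ENSMUSG00000038037; GRCm38 chromosome 16, 10782240 to 10785536, minus strand, protein coding) encodes an inhibitor that binds JAK1, JAK2 and TYK2 directly. It was close to the limit of detection in control cells, at 5.39, 6.45 and 2.44 in WT (10, 10 and 1 reads) and 6.13, 7.32 and 4.38 in KO (10, 7 and 5 reads). It was highest with IFNg, at 1776, 1369 and 1312 in WT and 1493, 1326 and 1238 in KO. The genotypes overlapped there, and every IFNg library lay above every LPS library. With LPS the values were 493, 575 and 541 in WT and 779.6, 656 and 849.9 in KO, so that each KO library exceeded each WT library. With IL4 they were 142, 147 and 153 in WT and 95.7, 121 and 86.3 in KO, and each KO library lay below each WT library. The log2 response of WT cells, on the scale of value plus 1, was 8.07 ± 0.22 (SE) with IFNg, 6.62 ± 0.22 with LPS and 4.76 ± 0.22 with IL4 (adjusted p = 3.8e-20, 1.3e-18 and 1.2e-14). Over 15 alternatives these responses ranged from 6.66 to 8.39, 5.22 to 7.03 and 3.42 to 4.98. The WT LPS mean was 36.1% of the WT IFNg mean. The KO minus WT differences, 0.50 ± 0.22 with LPS (adjusted p = 0.10) and -0.55 ± 0.22 with IL4 (adjusted p = 0.13), did not pass the threshold. That of LPS passed it in 4 of 15 alternative analyses and that of IL4 in 6 of 15.

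Socs3 (ENSMUSG00000053113; GRCm38 chromosome 11, 117966079 to 117970047, minus strand, protein coding) encodes the inhibitor that docks on gp130 and on the receptors for leptin and G-CSF. Control libraries held 32.9, 38.0 and 29.3 in WT and 27.6, 27.2 and 25.4 in KO, a difference of -0.30 ± 0.10 that did not pass (adjusted p = 0.063) but did without WT control replicate 3 (-0.39, adjusted p = 0.020). LPS brought it to 31291, 30911 and 25469.9 in WT and to 21806, 21911 and 23181 in KO. Every KO LPS library lay below every WT LPS library, and the KO mean was 76.3% of the WT mean. The difference was -0.38 ± 0.10 on the log2 scale (SE, n = 3 per group, adjusted p = 0.0057, limma), and it passed the threshold in 15 of 15 alternatives, with values from -0.48 to -0.32. With IFNg the level was 9845, 8697 and 9159 in WT and 8722, 7298 and 7476 in KO, so that the genotypes overlapped. That difference was -0.24 ± 0.10 (adjusted p = 0.16) and passed in 4 of 15 alternatives. With IL4 the values were 110.1, 99.0 and 119 in WT and 109.9, 132 and 115 in KO, also overlapping. WT cells responded by 9.73 ± 0.10 (LPS), 8.07 ± 0.10 (IFNg) and 1.68 ± 0.10 (IL4), in that order (adjusted p = 2.3e-28, 1.0e-26 and 1.4e-12). The WT LPS mean exceeded the WT IFNg mean 3.16-fold, the reverse of the order of Socs1.

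Cish (ENSMUSG00000032578; GRCm38 chromosome 9, 107296026 to 107302784, plus strand, protein coding) encodes CIS, an inhibitor induced by STAT5 that competes for its docking sites on receptors such as those of the IL-2 and IL-3 families. In control cells it was barely detected, with 7, 2 and 0 reads in WT (values of 3.77, 1.29 and 0) and 5, 1 and 4 reads in KO (3.06, 1.05 and 3.51). In WT control replicate 3, where it had no read, 3 reads would have equalled 7.33. LPS gave 485, 546 and 406 in WT and 1252, 1429.9 and 1638 in KO, and the lowest KO library exceeded the highest WT library. The KO mean was 3.01 times the WT mean. The log2 difference of 1.59 ± 0.35 (SE, n = 3 per group) had an adjusted p of 0.0016 and passed in 15 of 15 alternatives. KO LPS replicate 1 rested on 53 reads, and without it the difference was 1.68. Marker sums that also separated KO LPS from WT LPS without overlap were those of T and NK cells (1063 to 1303 against 567 to 599), B cells (23.6 to 31.3 against 9.52 to 12.2) and dendritic cells (21.3 to 24.6 against 0 to 20.2). In KO LPS replicate 1, where 1 read stands for 23.6, the B cell and dendritic cell sums each rested on 1 read. The part of these marker sums in the differences with LPS was not tested. Among the 8 T and NK cell markers the highest level in any library was 1253 for Lck, 49.7 for Cd4, 47.3 for Cd8a, 23.6 for Cd3e and under 10 for the other 4. With IFNg Cish stood at 91.4, 90.6 and 88.5 in WT and at 213, 185 and 198 in KO, again without overlap, a ratio of means of 2.21. The difference of 1.13 ± 0.35 had an adjusted p of 0.042. The difference passed in 8 of 15 alternatives, and its values stayed between 1.06 and 1.21 in all 15. Leaving out any 1 of the 6 libraries gave an adjusted p between 0.080 and 0.12, and no filter on low values gave 0.061. With IFNg the T and NK cell sum was also higher in KO (887 to 1005 against 636 to 671), as was that of B cells (16.0 to 29.4 against 11.6 to 15.4), while those of dendritic cells (657 to 701 against 754 to 845), fibroblast and stroma (246 to 296 against 303 to 359) and macrophages (152684 to 159795 against 169545 to 172088) were lower. Their part in the differences with IFNg was not tested. With IL4 the order of the genotypes was the opposite: 257, 230.0 and 232 in WT against 170.2, 189 and 182 in KO, where the KO mean was 75.4% of WT. That difference, -0.40 ± 0.35, did not pass (adjusted p = 0.64). Its SE was pooled over all 8 groups, among them the control libraries of 0 to 7 reads. In a fit of the 2 IL4 groups alone the same difference had an adjusted p of 0.0049, and with edgeR on the recovered reads 0.0085. The WT responses of Cish were 7.75 ± 0.35 with LPS, 6.76 ± 0.35 with IL4 and 5.36 ± 0.35 with IFNg (adjusted p = 9.8e-16, 1.4e-13 and 2.0e-12), and with a pseudocount of 10 those to IL4 and IFNg were 4.43 and 3.11. Over 15 alternatives the WT response to LPS ranged from 5.39 to 8.30. The response to LPS was not called larger in KO (interaction 1.00 ± 0.49, adjusted p = 0.25). It was with a pseudocount of 10 (1.46, adjusted p = 2.8e-05) or without WT control replicate 3 (1.57, adjusted p = 0.0083). The interaction passed in 3 of 21 alternatives, with values from 0.44 to 1.68 over all 21.

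Socs2 (ENSMUSG00000020027; GRCm38 chromosome 10, 95385362 to 95417180, minus strand, protein coding) encodes the inhibitor known for limiting growth hormone signalling through STAT5. Its level followed LPS and IL4 and hardly IFNg. Controls held 4.85, 5.80 and 14.7 in WT (9, 9 and 6 reads) and 6.13, 5.23 and 4.38 in KO. LPS gave 126, 132 and 124 in WT and 189, 222 and 252 in KO (8, 361 and 201 reads). IL4 gave 108, 113 and 97.0 in WT and 73.9, 64.4 and 59.6 in KO. As for Cish and Socs1, each KO library lay above each WT library with LPS and below each with IL4. With IFNg the values were 8.97, 6.84 and 8.53 in WT and 10.2, 14.7 and 13.4 in KO, against 4.85 to 14.7 in the WT control libraries. The WT response was 3.91 ± 0.31 with LPS (adjusted p = 7.7e-11), 3.65 ± 0.31 with IL4 (adjusted p = 1.7e-09) and 0.09 ± 0.31 with IFNg (adjusted p = 0.87). Over 15 alternatives the WT responses to LPS and IL4 ranged from 2.94 to 4.35 and from 2.69 to 4.08. In KO cells the IFNg response was 1.13 ± 0.31 (adjusted p = 0.0040), and the test of the difference between genotypes did not pass (1.05 ± 0.44, adjusted p = 0.36). The KO minus WT difference was 0.78 ± 0.31 with LPS (adjusted p = 0.076), which passed in 7 of 15 alternatives, among them leaving out KO LPS replicate 1 (0.89, adjusted p = 0.043). With IL4 it was -0.68 ± 0.31 (adjusted p = 0.22), which passed in 6 of 15.

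Usp18 (ENSMUSG00000030107; GRCm38 chromosome 6, 121245906 to 121270917, plus strand, protein coding) encodes the ISG15 protease. Its difference between genotypes with IL4 had the smallest p of any member in the comparisons between genotypes. Control libraries held 265, 284 and 288 in WT and 317, 284 and 282 in KO. With IL4 the values were 537, 545 and 504 in WT and 1482, 1507 and 1469 in KO. The KO IL4 libraries lay 2.81 times as high on average, with an SD of 21.9 in WT and 19.7 in KO. The KO minus WT difference was 1.49 ± 0.06 (SE, n = 3 per group, adjusted p = 3.0e-15), with values from 1.46 to 1.54 in 15 alternatives, in all of which it passed. The response to IL4 itself was 0.92 ± 0.06 in WT and 2.33 ± 0.06 in KO, and the interaction of genotype with IL4 was 1.41 ± 0.08 (adjusted p = 1.7e-11, passing in 21 of 21 alternatives). LPS raised Usp18 to 31046, 31989 and 35155 in WT and to 31776, 32029.6 and 34539 in KO, and the genotypes overlapped. The difference there was 0.00 ± 0.06 (adjusted p = 1.0). IFNg gave 3101, 3023 and 2878 in WT and 3169.9, 3396 and 3422 in KO, a difference of 0.15 ± 0.06 (adjusted p = 0.13). A genotype difference with IFNg passed under 3 of 15 alternatives, with values between 0.12 and 0.23.

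The other genes of the ISG15 system were also higher in KO with IL4. Of 4 measured genes, Isg15 itself, its activating enzyme Uba7, its conjugating enzyme Ube2l6 and its ligase Herc6, all 4 were higher in KO IL4 than in WT IL4, where 6.14% of all genes tested were called higher. The median of the 4 differences was 1.22 on the log2 scale, beside 0 over all genes tested. Isg15 stood at 459, 476 and 503 in WT and 1764, 1965 and 1816 in KO, a difference of 1.94 ± 0.08 (adjusted p = 1.8e-14). Herc6 stood at 1283, 1204 and 1322 in WT and 4132, 3645 and 3601 in KO, a difference of 1.58 ± 0.08 (adjusted p = 6.0e-13). Ube2l6 and Uba7 differed by 0.87 ± 0.06 and 0.74 ± 0.08. In control cells none of the 4 was higher in KO, and Ube2l6 was lower (-0.37 ± 0.06, adjusted p = 0.00014). The interaction with IL4 was called upwards for 4 of 4, where 2.45% of all genes tested were. In the same IL4 groups the summed level of 8 neutrophil markers was lower in KO (269 to 323) than in WT (497 to 621), as was that of fibroblast and stroma (352 to 490.0 against 494 to 507). The sums of T and NK cells (57.9 to 81.6 against 47.8 to 56.1) and macrophages (207309 to 209999 against 200329 to 201932) were higher in KO. Their part in the differences with IL4 was not tested. With LPS Isg15 was higher in KO (0.52 ± 0.08, adjusted p = 5.3e-05) and Uba7 lower (-0.27 ± 0.08, adjusted p = 0.017), the latter not called without the 3 libraries of fewest reads. With IFNg limma called 1 of the 4 higher in KO and none lower, against 4.83% and 4.21% of all genes tested. Isg15 averaged 3971 in WT IFNg and 6003 in KO IFNg. The interaction was called upwards for 2 of 4 with LPS (4.29% of all genes tested) and 1 of 4 with IFNg (1.32%).

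**Figure D2:**
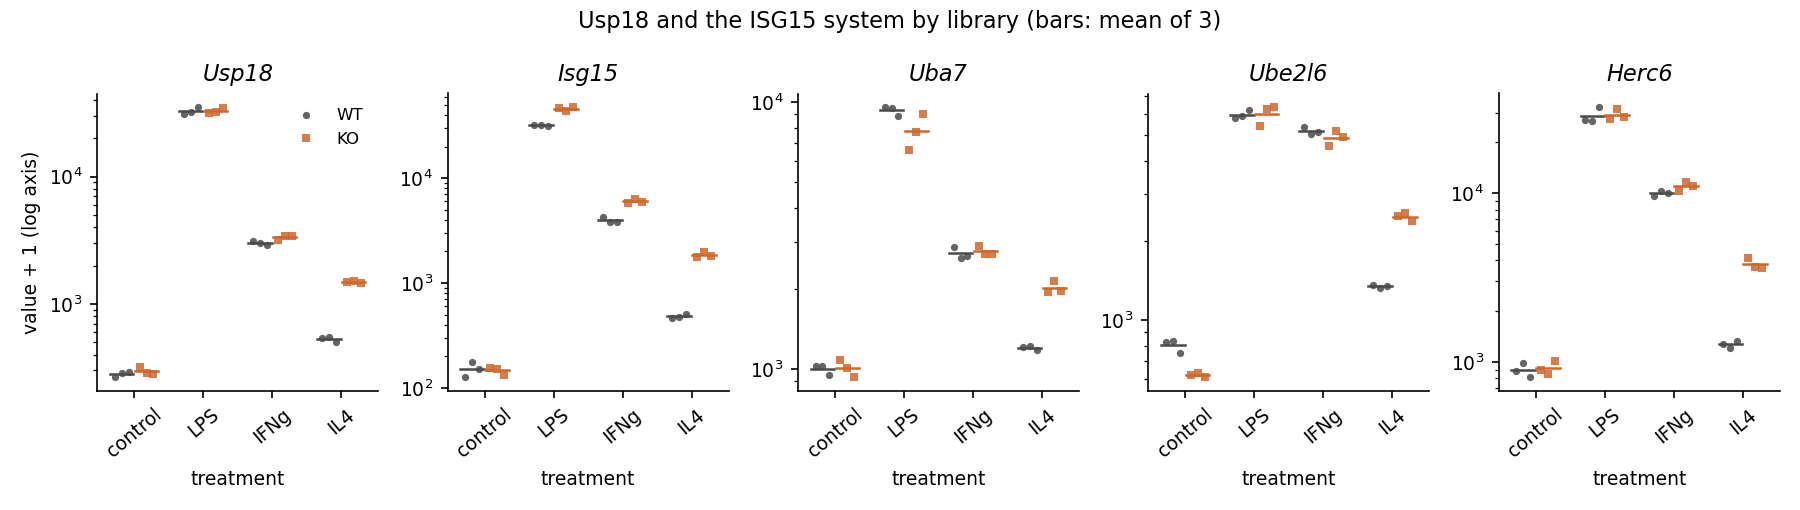
Normalised read count plus 1 (log axis) of Usp18 and of the 4 other measured genes of the ISG15 system in the 24 libraries, with bars at the mean of 3. In all 5 panels the KO IL4 squares lie above the WT IL4 circles, while control libraries lie close together except for Ube2l6, which was lower in KO.

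Socs6 (ENSMUSG00000056153, protein coding) encodes a member known for binding receptor tyrosine kinases such as KIT. It was the member with the largest fall on treatment and was higher in untreated KO cells. Controls held 2684, 2602 and 2355 in WT and 3557, 3215 and 3727 in KO, without overlap, a difference of 0.46 ± 0.09 (SE, n = 3 per group, adjusted p = 0.0016) that passed in 15 of 15 alternatives. The B cell marker sum was also higher in KO control (20.2 to 37.6 against 12.2 to 18.9), and its part was not tested. LPS lowered it to 616, 577 and 674 in WT and 496, 669.8 and 615 in KO. IFNg lowered it to 572, 589 and 540.2 in WT and 617, 693 and 633 in KO. With these 2 treatments the WT mean fell to 24.4% and 22.3% of control. IL4 brought it to 1609, 1582 and 1562 in WT and to 2208, 1845 and 1869 in KO. That KO minus WT difference, 0.31 ± 0.09 (adjusted p = 0.032), was no longer called without KO IL4 replicate 1 (0.23, adjusted p = 0.24) or without WT IL4 replicate 1, 2 or 3 (adjusted p = 0.077, 0.086 and 0.11). The WT responses were -2.03 ± 0.09 with LPS, -2.16 ± 0.09 with IFNg and -0.68 ± 0.09 with IL4 (adjusted p = 1.2e-15, 4.9e-16 and 3.3e-06). The fall with LPS was larger in KO, with an interaction of -0.53 ± 0.13 (adjusted p = 0.0092). It was -0.36 (adjusted p = 0.069) without the 3 libraries of fewest reads, in one of which, KO LPS replicate 1, Socs6 rested on 21 reads, and its adjusted p was 0.054 in a fit of only the 4 groups compared.

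Socs5 (ENSMUSG00000037104; GRCm38 chromosome 17, 87107679 to 87137839, plus strand, protein coding) encodes a SOCS protein with a long amino-terminal region, linked to EGF receptor and IL-4 receptor signalling. It varied least: its highest and lowest group means differed 2.00-fold. Controls held 779, 755 and 728 in WT and 729, 689 and 766 in KO. IL4 left it at 841, 822 and 788 in WT and 764, 738 and 725 in KO, and neither response to IL4 passed (adjusted p = 0.64 and 0.94). LPS gave 534, 527 and 572 in WT and 284, 493 and 451 in KO, and IFNg gave 508, 535 and 496 in WT and 520.1, 541 and 499 in KO. The WT falls of -0.47 ± 0.12 with LPS (adjusted p = 0.0019) and -0.55 ± 0.12 with IFNg (adjusted p = 0.00045) were not called when each library was centred on its median gene (-0.05 with adjusted p = 0.79, and -0.23 with adjusted p = 0.19), nor was that of KO cells with IFNg (-0.16, adjusted p = 0.41). That centring raises every LPS response in WT by 0.42 and every IFNg response in WT by 0.32. The KO minus WT difference with LPS was -0.45 ± 0.12 (adjusted p = 0.0084). It fell to -0.21 (adjusted p = 0.031) without KO LPS replicate 1, where Socs5 had 12 reads, and was not called with edgeR or DESeq2 on the recovered reads (adjusted p = 0.098 and 0.082), nor with median centring, library weights or only the LPS groups (0.057, 0.054 and 0.20).

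**Figure D3:**
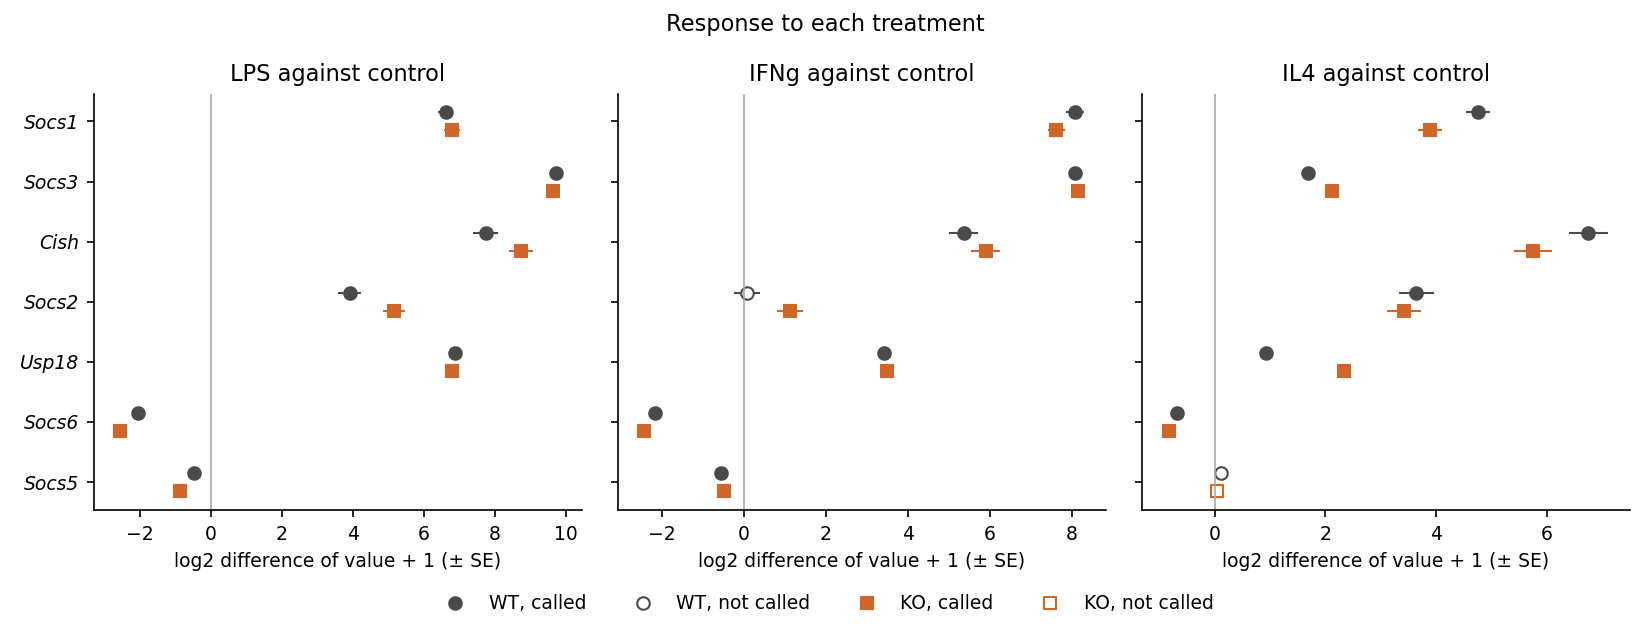
Log2 difference of value plus 1 between each treatment and control (x axis, ± SE of the fit) for each member in WT (circles) and KO (squares), with filled symbols for an adjusted p below 0.05. Socs3 has the largest response to LPS, Cish the largest to IL4 and Socs6 the largest fall with each treatment.

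Between genotypes the members were counted by treatment. In control cells limma called 1 of 7 higher in KO (Socs6) and none lower, where 4.11% of all genes tested were called higher and 3.05% lower. With LPS 1 was higher (Cish) and 2 were lower (Socs3 and Socs5), against 9.70% and 12.5%. With IFNg 1 was higher (Cish) and none lower, against 4.83% and 4.21%, and with IL4 2 were higher (Usp18 and Socs6) and none lower, against 6.14% and 3.14%. The 3 libraries of KO did not overlap the 3 of WT for 2 members in control (23.4% of all genes tested), 5 with LPS (24.3%), 4 with IFNg (27.9%) and 6 with IL4 (32.3%). The median KO minus WT difference of the members was 0.08 in control, 0.00 with LPS, 0.15 with IFNg and -0.14 with IL4, beside 0, -0.06, -0.03 and 0 over all genes tested. The test of unequal responses called 1 member with LPS (Socs6, a larger fall in KO), where 4.29% of all genes were called upwards and 4.50% downwards, and 1 with IL4 (Usp18, upwards), against 2.45% and 1.15%. With IFNg limma called none, against 1.32% and 1.18%. In that comparison 1 member, Socs2, had an unadjusted p below 0.05, edgeR and DESeq2 on the recovered reads each called 0, and a pseudocount of 10 called 1, Cish.

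**Figure D4:**
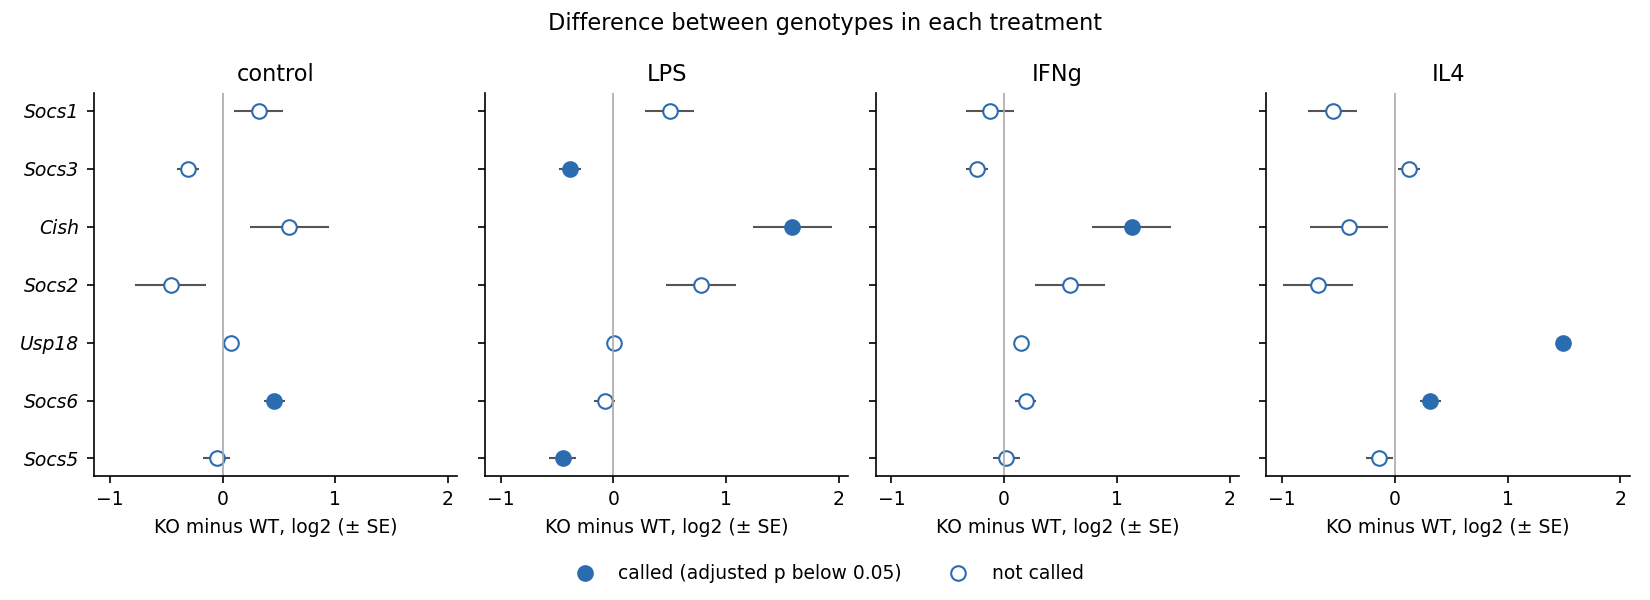
KO minus WT difference on the log2 scale (x axis, ± SE of the fit) of each member in control, LPS, IFNg and IL4, with filled points for an adjusted p below 0.05. Cish, Socs1 and Socs2 lie to the right of zero with LPS and to the left with IL4, and Usp18 lies at 1.49 with IL4 and near zero elsewhere.

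Cish, Socs1 and Socs2 were higher in KO with LPS and lower in KO with IL4 in each library. In the limma fit of all 24 libraries only Cish with LPS passed the threshold within a treatment. Under edgeR, DESeq2 and a limma fit of only the groups compared, each of the 3 genes passed with LPS and with IL4. The difference between the LPS and IL4 differences was therefore tested in the limma fit of all 24 libraries, a comparison added after these values had been seen. The KO minus WT difference with LPS exceeded that with IL4 by 1.99 ± 0.49 for Cish (SE, n = 3 per group, adjusted p = 0.0087), 1.46 ± 0.44 for Socs2 (adjusted p = 0.035) and 1.05 ± 0.30 for Socs1 (adjusted p = 0.027). The opposite sign was seen for Usp18 (-1.49 ± 0.08, adjusted p = 1.2e-11) and Socs3 (-0.51 ± 0.14, adjusted p = 0.019). In all, 3 members were called upwards and 2 downwards, where 3.44% and 6.06% of all genes tested were. Socs6 (-0.39 ± 0.13, adjusted p = 0.066) and Socs5 (-0.31 ± 0.17, adjusted p = 0.30) were not called. Cish and Usp18 passed in 21 of 21 alternatives, Socs1 in 15 and Socs2 in 11. The calls lost were all on leaving out 1 library: WT LPS 1, KO LPS 3, WT IL4 2, WT IL4 3, KO IL4 1 or KO IL4 3 for Socs1, any of the 12 but KO LPS 1 and KO LPS 2 for Socs2, and WT LPS 1, WT LPS 2, WT IL4 2 or KO IL4 2 for Socs3. In those fits the 3 genes had adjusted p of at most 0.083, 0.087 and 0.065, and over all alternatives their values stayed between 0.95 and 1.19, 1.35 and 1.61, and -0.60 and -0.43.

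Per kilobase of annotated exon, the members changed places between treatments. In control cells Socs6 was highest (224 in WT and 308 in KO), followed by Socs5 (117 and 113) and Usp18 (100.1 and 106), with Cish (0.263 and 0.396) and Socs2 (0.885 and 0.550) at the bottom. With LPS Usp18 (11731 in WT and 11749.6 in KO) and Socs3 (10109 and 7713) led. With IFNg the order was Socs3 (3194 in WT), Usp18 (1076) and Socs1 (511), while Socs2 stood at 0.851. With IL4 the levels lay closer together, from 11.1 for Socs2 to 189.6 for Usp18 in WT. In KO IL4 Usp18 reached 533 per kilobase, ahead of Socs6 at 174. The lengths are the union of exons in GENCODE M21, and the transcripts used by these cells may be shorter.

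**Figure D5:**
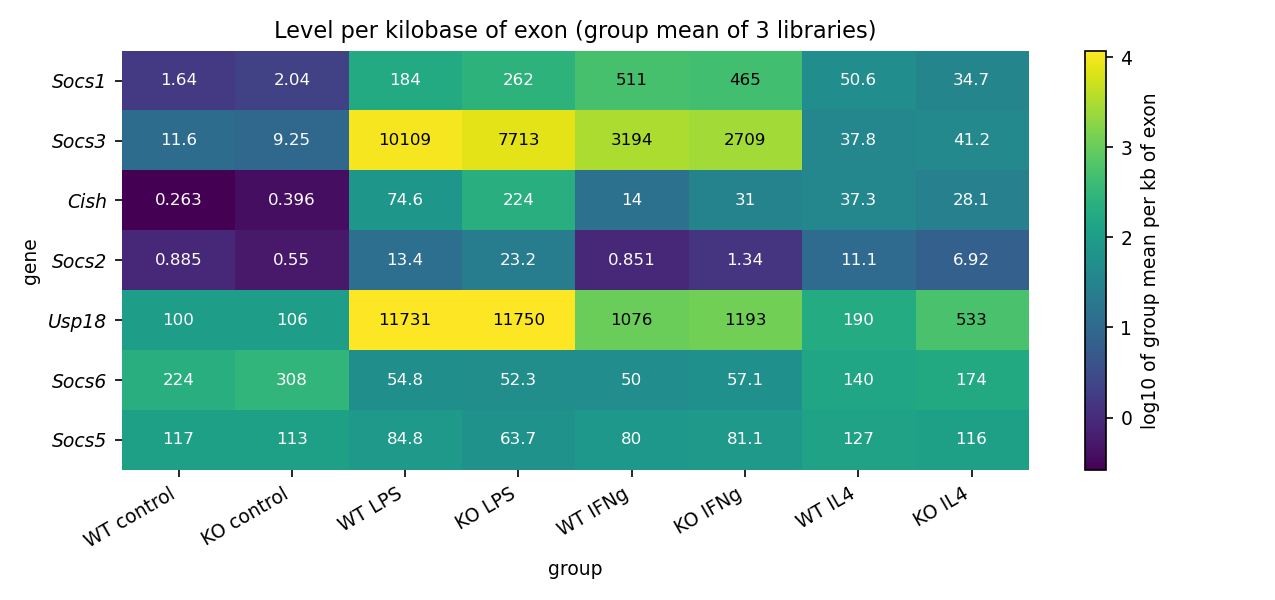
Group mean of the normalised read count per kilobase of exon (numbers in cells, colour on a log10 scale) for the 7 members in the 8 groups. Usp18 and Socs3 are brightest with LPS, Socs6 leads in control cells, and Cish and Socs2 are darkest there.

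Other genes of the pathway were counted in lists. Among 12 kinases and STAT genes with Irf9, 11 rose and 1 fell with LPS in WT, where 25.5% and 27.8% of all genes tested did. The counts were the same with IFNg, against 22.5% and 22.6%. The smallest p with LPS belonged to Jak2 (5.36 ± 0.07), a kinase of the interferon gamma receptor, and Stat2 (4.21 ± 0.06), a part of the complex that binds the ISRE. Between genotypes 6 of the 12 were higher in KO with IL4 and none lower, against 6.14% and 3.14% of all genes tested. They included Stat2 (1.07 ± 0.06, adjusted p = 4.0e-12) and Irf9 (0.71 ± 0.06, adjusted p = 1.3e-09), which encode partners in that complex. In control cells limma called none of the 12, with 3 at an unadjusted p below 0.05, 1 called by edgeR, 2 by DESeq2 and 2, both lower in KO, by limma without the 3 libraries of fewest reads. With LPS 4 were higher and 1 lower in KO (none lower without those 3 libraries), against 9.70% and 12.5% of all genes, among them Stat5a (0.36 ± 0.08, adjusted p = 0.0011) and Stat5b (0.28 ± 0.07, adjusted p = 0.0070), factors known to induce Cish and Socs2. With IFNg Stat5a averaged 760 in WT and 713 in KO, and Stat5b 1454 and 1409. The part of Stat5a and Stat5b in the levels of Cish and Socs2 was not tested.

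Among the ligands, 13 of 15 could be tested, and with LPS 5 of them were called higher and 1 lower in KO, against 9.70% and 12.5% of all genes tested. There edgeR called 11 in all and DESeq2 9. The largest of the named differences was Ifnb1, interferon beta, at 31.4 ± 11.9 (SD) in WT LPS and 219 ± 16.8 in KO LPS (log2 difference 2.83 ± 0.43, adjusted p = 2.5e-05). Il10, an anti-inflammatory cytokine that signals through STAT3, was lower (-1.68 ± 0.48, adjusted p = 0.013). With IL4, where Usp18 and the ISG15 system were higher in KO, Ifnb1 averaged 0.192 in WT and 0.552 in KO, below the level of 3 reads in any IL4 library, the lowest of which was 1.72. The part of Ifnb1 in the IL4 differences of Usp18 and the ISG15 system was not tested. With LPS the 19 receptor genes split into 4 higher, 7 lower and 8 not called in KO, against the same shares of all genes, led by Il6ra (-1.70 ± 0.07, adjusted p = 1.7e-14), the IL-6 binding chain of the receptor that SOCS3 restrains. With IL4 3 were higher and 2 lower, against 6.14% and 3.14%, among them Ifngr1 (-0.61 ± 0.06, adjusted p = 2.0e-07) and Il13ra1 (1.08 ± 0.08, adjusted p = 8.0e-10). In control cells Ifngr1 averaged 3303 in WT and 2356 in KO, and Il13ra1 310 and 499, the same directions as with IL4. Limma called 6 of the 19 higher and 5 lower in KO control, against 4.11% and 3.05% of all genes tested.

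Of 8 other SOCS and ligase genes, which carry the remaining family members and the subunits of the ligase that SOCS boxes recruit, 5 rose and none fell with LPS in WT, against 25.5% and 27.8% of all genes tested. Ube2f, a conjugating enzyme for NEDD8, rose by 2.07 ± 0.06 and Socs7 by 1.56 ± 0.09. Between genotypes limma called none of the 8 in control, with IFNg or with IL4, where 0, 3 and 1 had an unadjusted p below 0.05, edgeR called 0, 0 and 1, and DESeq2 called 0, 1 and 0. With LPS limma called 2 upwards (9.70% of all genes), Eloc (0.29 ± 0.10, adjusted p = 0.039) and Socs7 (0.25 ± 0.09, adjusted p = 0.042), while without the 3 libraries of fewest reads it called 1. Of 18 other inhibitors of cytokine signalling, 12 rose and 5 fell with LPS in WT, against the 25.5% and 27.8% above, led by Tnfaip3 (5.93 ± 0.05) and Nfkbia (5.46 ± 0.05), both brakes on NF-kappaB. In KO cells with LPS 5 of the 18 were higher and 3 lower than in WT, against 9.70% and 12.5% of all genes, including the tyrosine phosphatase gene Ptpn2 (0.67 ± 0.06, adjusted p = 9.9e-09) and Dusp1 (-0.86 ± 0.09, adjusted p = 2.0e-07), a phosphatase of MAP kinases. With IL4 5 were higher and 1 lower, against 6.14% and 3.14%, led by Lgals9, galectin-9 (1.11 ± 0.05, adjusted p = 1.2e-13).

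The members fell into an induced and a repressed set across the 24 libraries, which share treatments and genotypes, so the correlations are descriptions. On the log2 scale Pearson's r was -0.97 between Socs3 and Socs6, 0.92 between Socs3 and Usp18, 0.89 between Socs1 and Socs3 and 0.40 between Socs1 and Socs2. Among 10269 other genes whose highest group mean was at least 50, the nearest to Usp18 were Nmi (r = 0.997), Ifit1 (0.996) and Ifi35 (0.995), all known as interferon-induced genes. Ifit1, like Usp18, was higher in KO IL4 (3105 on average) than in WT IL4 (457). Its KO mean also exceeded its WT mean with LPS (231464 against 157335) and with IFNg (9258 against 6135). For Usp18 the KO and WT means were 32781 against 32730 with LPS and 3329 against 3001 with IFNg. The nearest to Socs3 were Nrp2 (0.997), Ehd1 (0.995) and Zfp263 (0.995), and to Socs1 Ralgds (0.986), Rnf19b (0.985) and Prdx5 (0.984). Cish was followed most closely by Ddhd1 (0.981), Stxbp3a (0.976) and Tarm1 (0.967), and Socs2 by Plekha3 (0.96), Scamp2 (0.957) and Ccl9 (0.950). For Socs6 the nearest were Nf2 (0.994), Rttn (0.989) and Tmem65 (0.984), and for Socs5 Phkb (0.981), Ern1 (0.979) and Wdr90 (0.977).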

How the data were processed

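Total RNA of 24 mouse BMDM libraries (3 in each of 8 groups) had been sequenced. Per the submitters' processing notes TopHat2 2.2.1, Cufflinks 2.2.1, Cuffdiff and build mm10 (GRCm38) were used; the read counter and annotation were not given in the sources used here. The deposited table holds a normalised signal: in each library 100.0% of the authors' values were whole multiples of the value of 1 read (tolerance 0.05 reads), so whole reads were recovered.

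Log2 of the value plus 1 was fitted with limma 3.58.1 in R 4.3.3 (mean-variance trend, 1 mean per group, 16 residual degrees of freedom). Genes that reached a value of 1 in 3 or more libraries were tested, and p-values were Benjamini-Hochberg adjusted over all of them. There were 13 comparisons, plus the LPS against IL4 comparison of genotype differences. The fit was tested on simulated data. The changed genes there had higher control levels than Cish, Socs1 and Socs2, so the test does not cover levels as low as theirs. No library duplicated another: the chi-square per degree of freedom within groups was 2.03 to 24.5 over 24 pairs. Alternatives used edgeR 4.0.16 and DESeq2 1.42.0 on the recovered reads, a pseudocount of 10, no filter, median centring, library weights, only the groups compared, a replicate block and leaving out libraries.

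The members and lists were chosen with earlier results of these data known. Named list genes are among the 4 with the smallest adjusted p in a comparison, and nearest genes are the 3 with the largest r, without predicted genes, pseudogenes and microRNA genes. Ifnb1 and Ifit1 with IL4 were named after their values were seen. Elob and Eloc were matched by gene identifier, and Usp41 was not used here. The values of 1 gene of the kinase and STAT list are not reported here.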

Additional observations from a re-analysis of the deposited data

Results flagged for a closer look

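Responses of 2 members differed between genotypes by the interaction test, on the log2 scale with 3 libraries per group. The fall of Socs6 with LPS was larger in KO than in WT, with an interaction of -0.53. The response of Usp18 to IL4 was larger in KO, with an interaction of 1.41. The other comparison, the KO minus WT difference with LPS minus that with IL4, was added because opposite signs had been seen, so it describes that observation and is no independent support. It was 1.99 for Cish, 1.05 for Socs1, 1.46 for Socs2, -0.51 for Socs3 and -1.49 for Usp18. Of 21 alternatives, Socs1 was called in 15, Socs2 in 11 and Socs3 in 17, and Cish and Usp18 in all 21.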

How the results depend on the processing

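Of the members' called differences none changed sign under any alternative run. The counts of members called between genotypes were as follows. In control, 1 became 3 with library weights and 2 without the 3 libraries of fewest reads, and 1 to 2 on leaving out 1 library. With LPS, 3 became 5 with a pseudocount of 10, and 3 to 4 on leaving out 1 library. With IFNg, 1 became 0 without the filter, 2 with median centring, 5 with library weights, 2 with only the groups compared, 2 with edgeR and 3 with DESeq2, and 0 on leaving out any 1 library. With IL4, 2 became 4 with a pseudocount of 10 or without the 3 libraries of fewest reads, 5 with library weights, only the groups compared, edgeR or DESeq2, and 1 to 2 on leaving out 1 library. The interaction with LPS went from 1 to 3 with a pseudocount of 10, 0 with only the groups compared and 1 to 2 on leaving out 1 library, that with IFNg from 0 to 1 with a pseudocount of 10, and that with IL4 from 1 to 3 with library weights, 2 without the 3 libraries of fewest reads and 1 to 2 on leaving out 1 library. The LPS against IL4 count of 5 ranged from 2 to 7 on leaving out 1 library. The cause of these changes was not tested.

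Values that changed sign, none of them called, were these, on the log2 scale. For KO against WT in control, Socs1 was -0.0138 without the 3 libraries of fewest reads (-0.0138 to 0.543 leaving out 1 library) and Socs5 0.0189 with median centring. For KO against WT with LPS, Socs6 was 0.0799 with library weights, 0.0417 without the 3 libraries, 0.043 with edgeR and 0.0327 with DESeq2 (-0.168 to 0.0477 leaving out 1 library), and Usp18 -0.0118 without the 3 libraries (-0.0349 to 0.0559). With IFNg, leaving out 1 library gave -0.209 to 0.00858 for Socs1 and -0.00977 to 0.0496 for Socs5. It gave -0.188 to 0.522 for the response of Socs2 to IFNg in WT and -0.0102 to 0.0665 for that of Socs5 to IL4 in KO. Interactions ranged from -0.0436 to 0.513 (Socs1, LPS), -0.176 to 0.00809 (Socs3, LPS; 0.0764 without the 3 libraries), -0.0141 to 1.11 (Cish, IFNg), -0.0304 to 0.152 (Socs3, IFNg; -0.00296 with a pseudocount of 10) and -0.658 to 0.0522 (Socs2, IL4).

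Replicate numbers did not pair the libraries: 0 of 10 compared group pairs had every correlation over 0.1 (range -0.35 to 0.39 over 10110 genes). A replicate block left the members' counts between genotypes at 1, 3, 1 and 2, those of the interactions at 1, 0 and 1, and those of the treatments at 6 or 7.

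Over all genes tested, library weights raised the calls between genotypes from 1334 to 3063 in control, 1686 to 3512 with IFNg and 1731 to 4035 with IL4, those for IL4 from 3749 to 6125 in WT and 4316 to 7056 in KO, and the interactions from 1639 to 2755 (LPS), 466 to 1520 (IFNg) and 672 to 2338 (IL4). Only the groups compared gave 1542 in place of 4141 with LPS, 2539 with IFNg, 3350 with IL4, 5674 for IL4 in WT, 874 and 1115 for the LPS and IL4 interactions, and 1172 in place of 1770 for LPS against IL4. With IFNg and IL4, leaving out the 3 libraries gave 2848 and 2720, edgeR 2533 and 2862, and DESeq2 2576 and 2735; the IL4 interaction was 1030 without the 3 libraries and 1169 with DESeq2, and the IFNg interaction 849 with DESeq2. Median centring moved the share of calls that were higher from 57.4% to 71.4% (control), 43.7% to 58.2% (LPS) and 53.4% to 72.0% (IFNg) between genotypes, and from 47.9% to 69.0% (LPS) and 49.9% to 70.8% (IFNg) in WT and 43.0% to 61.6% and 48.4% to 70.1% in KO. Depth limits the control values of Cish, Socs1 and Socs2, which rest on 10 reads or fewer in every library.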
